A study of Mus musculus with 3 samples.

Results

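Xdh encodes xanthine oxidoreductase, and it was described together with 6 other enzymes of purine salvage and breakdown, namely Pnp, Ada, Hprt, Ampd3, Nt5e and Gda. The 7 genes were selected by name from the 55536 genes of the gene tables, and Xdh was selected on its counts, as a gene among the 10 largest shares of a library. That level is therefore a description and not a finding. All 7 genes were present in each of the 3 libraries.

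Purines are built from small precursors or recovered from nucleosides and bases that the cell already has. In the breakdown branch, AMP deaminase and adenosine deaminase remove the amino group of adenine compounds, purine nucleoside phosphorylase splits the sugar from inosine and guanosine, guanine deaminase turns guanine into xanthine, and xanthine oxidoreductase oxidises hypoxanthine and xanthine to uric acid. Hypoxanthine-guanine phosphoribosyltransferase works against this flow and rebuilds IMP and GMP from the bases. Xanthine oxidoreductase also yields superoxide and hydrogen peroxide, and its gene is known to respond to inflammatory stimuli in macrophages.

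The libraries were total RNA sequencing, after removal of ribosomal RNA, of the chromatin fraction of bone marrow-derived macrophages, primary cells grown from the marrow of C57BL/6J mice. Chromatin-bound RNA is rich in nascent and unspliced transcripts. All cells had received Lipid A, the TLR4-activating part of bacterial lipopolysaccharide, at 100 ng/ml for 12 h, then 12 h without it, and then Lipid A at 100 ng/ml for another 20 min. There was 1 group with replicates 1, 2 and 3, so no value here is an effect of Lipid A, and untreated cells were not analysed here. The labels call the libraries biological replicates but give the same donor entry for each, so their spread may be partly technical. Age and sex are not given in the labels. The starting RNA was 1 µg, 250 ng and 500 ng for replicates 1, 2 and 3, so that amount and replicate cannot be told apart.

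TPM, used throughout for levels, is a share of the library scaled for transcript length. The libraries held 13610746, 24105317 and 16517065 expected counts on genes for replicates 1, 2 and 3. All 8 macrophage markers listed were at 1 TPM or more in each library, with Adgre1 highest at 334 ± 54.4 TPM (SD, n = 3). The summed level of these markers ranged from 844 to 1024 TPM. Of 42 markers listed for other cell types, 3 reached 1 TPM throughout. The neutrophil, T and NK cell, B cell and mast cell lists had no such gene, and their sums ranged from 0.14 to 1.94 TPM. The 3 exceptions were Alas2 among the erythroid genes (11.0 ± 2.79 TPM), Kdr among stromal and endothelial genes (4.92 ± 4.61 TPM) and Zbtb46 among dendritic cell genes (1.41 ± 0.19 TPM), while the globin genes Hbb-bt and Hbb-bs were at 0. By the second transcript table, which has a different layout, it was 10 of the 42. Among them were Cd3d (14.0 ± 1.44 TPM), Cxcr2 (4.42 ± 1.61 TPM), Cd8a (2.48 ± 0.384 TPM) and Mpo (2.11 ± 0.503 TPM), named after their values were seen. The level of these markers therefore depended on the table. Their part in the members' values was not tested. In bulk RNA, fewer cells with a transcript and less of it per cell cannot be told apart.

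Xdh, which lies at chr17:73883895-73950196 on the minus strand of mm10 (ENSMUSG00000024066.9), had 743, 649 and 663 TPM in replicates 1, 2 and 3. The mean was 685 ± 50.5 TPM (SD, n = 3). The 3 values were close to each other, with replicate 1 highest. Xdh took 0.269% of gene counts in replicate 1 (Wilson 95% interval 0.266 to 0.272%), 0.281% in replicate 2 (0.279 to 0.284%) and 0.252% in replicate 3 (0.249 to 0.254%). None of these intervals overlapped another. They cover counting error only and not the spread between libraries, and since reads are not independent molecules they may be too narrow even for that.

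By count, Xdh ranked 9, 4 and 7 among the 22028 protein-coding genes of replicates 1, 2 and 3. Over genes of all types the ranks were 14, 11 and 14, so Xdh belonged to the 10 largest shares only among protein-coding genes. In that list of mean shares Rnf213 was first at 1.22%, Xdh was number 6 at 0.267%, the last gene inside the 10 was Lilr4b at 0.205% and the first outside was Ptprc at 0.196%. Scaled for length, Xdh was number 20 by mean TPM. Just above it stood Arap1 (704 ± 32.2 TPM), Sirpa (725 ± 126 TPM) and Parp14 (728 ± 198 TPM), and just below it Psap (667 ± 109 TPM), Sat1 (632 ± 163 TPM) and Mndal (623 ± 247 TPM). The distance from Xdh to these neighbours was within the spread between libraries.

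Pnp, which encodes purine nucleoside phosphorylase, followed Xdh in the order of the members. Its levels were 102, 63.2 and 48.3 TPM in replicates 1, 2 and 3, with a mean of 71.2 ± 27.8 TPM. Replicate 1 was high and replicate 3 low, and none of the 3 came near an Xdh value. Xdh exceeded Pnp 7.27-fold, 10.3-fold and 13.7-fold in the 3 libraries. Xdh alone made up 84.4, 86.6 and 88.0% of the summed TPM of the 7 members.

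Ampd3 encodes the AMP deaminase isoform best known from red blood cells, which makes IMP from AMP. It had 18.9, 21.7 and 22.1 TPM, a mean of 20.9 ± 1.75 TPM. Hprt, the phosphoribosyltransferase that returns hypoxanthine and guanine to nucleotides, had 12.3, 11.0 and 15.6 TPM, a mean of 13.0 ± 2.37 TPM. The ranges of the 2 genes did not overlap, and Ampd3 stood above Hprt in each library by 1.41-fold to 1.97-fold.

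Ada, adenosine deaminase, had 1.04, 2.91 and 1.14 TPM (mean 1.70 ± 1.05 TPM), which rested on 11, 50 and 16 counts. Gda, guanine deaminase, had 1.78, 0.94 and 1.36 TPM (mean 1.36 ± 0.42 TPM). Nt5e, the cell surface 5′-nucleotidase CD73 that releases adenosine from AMP, had 1.39, 0.84 and 1.83 TPM (mean 1.35 ± 0.496 TPM). The ranges of these 3 genes overlapped, so they have no order among themselves, and each lay below Hprt in every library. Among the members, the enzymes of Pnp and Gda release hypoxanthine and xanthine, the substrates of xanthine oxidoreductase, and their genes stood at 71.2 and 1.36 TPM.

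Of the 7 members, 5 were at 1 TPM or more in all libraries, and 45.2% of all protein-coding genes were. Gda and Nt5e missed this level in replicate 2 alone. The median of the members' mean levels was 13.0 TPM, beside 0.677 TPM over all protein-coding genes and 11.8 TPM over those that reached 1 TPM in all libraries.

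**Figure D1:**
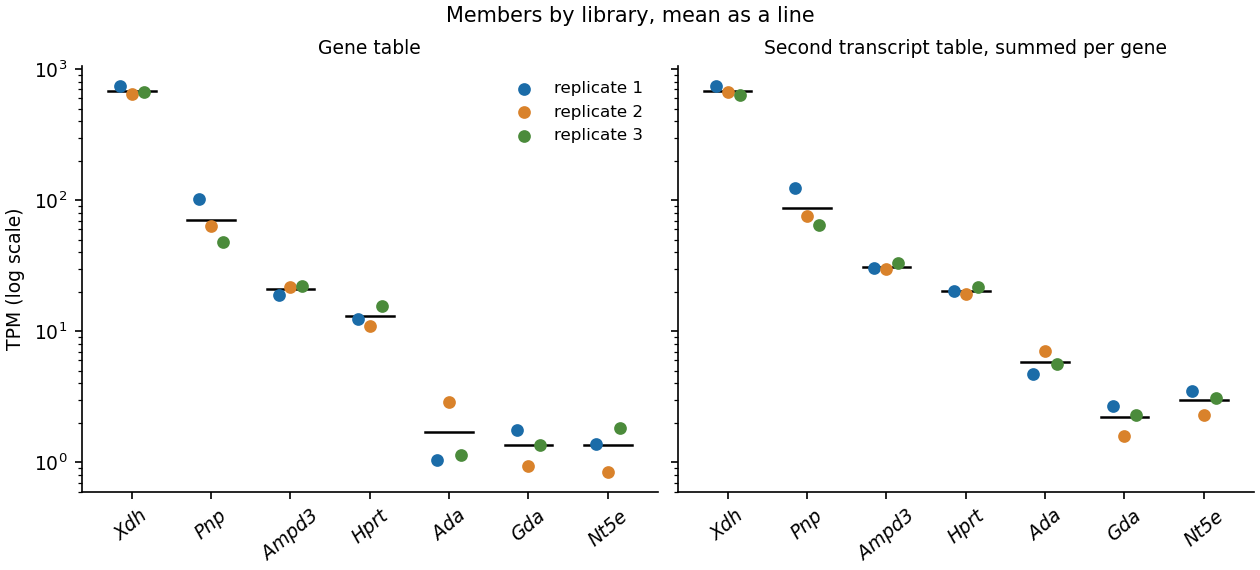
TPM of the 7 members on a log axis in the gene table (left) and in the second transcript table summed per gene (right), with 1 point per library and the mean as a line. Xdh lies between 649 and 743 TPM on the left, above all points of Pnp (48.3 to 102 TPM), and Ada, Gda and Nt5e overlap.

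The second transcript table, which describes the same libraries, gave Xdh 748, 668 and 633 TPM (mean 683 ± 59.0 TPM). The first 4 members kept their order there, and Ada was next. Ada had 90, 259 and 127 estimated counts in that table against 11, 50 and 16 in the gene table, a mean ratio of 7.10 ± 1.67. For Nt5e the mean ratio was 3.23, for Gda 2.85, for Hprt 2.53, for Pnp 1.87, for Ampd3 1.77 and for Xdh 1.29. Over the 9540 protein-coding genes that averaged 50 counts or more, the median ratio was 1.68 and the middle 50% ran from 1.47 to 2.05. In the second table Ada had 4.72, 7.13 and 5.66 TPM, which no longer overlapped Nt5e (2.29 to 3.52 TPM) or Gda (1.60 to 2.70 TPM), so the place of Ada depended on the table.

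The counts of Xdh did not lie mainly on the transcript that encodes the full enzyme. Of the 14 annotated transcripts of the gene, Xdh-206, a transcript of the retained-intron class, took 29753, 45915 and 31475 expected counts in replicates 1, 2 and 3. The protein-coding transcript Xdh-201 took 4626, 18965 and 8410. Xdh-206 thus held 81.3, 67.7 and 75.7% of the counts of the gene, and Xdh-201 held 12.6, 28.0 and 20.2%.

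Xdh-201 and Xdh-206 differ at intron 34 and slightly at their ends. Both have 36 exons, with 4600 exonic bases in Xdh-201 and 7775 in Xdh-206. Of the 34 inner exons 33 are the same, and Xdh-201 has 37 more bases at its 5′ end and 13 more at its 3′ end. Xdh-206 runs on from exon 34 into intron 34, holds 3225 of its 4591 bases (chr17:73887886-73891110 of mm10), and is then joined to exon 35 like Xdh-201. The stretch lies inside the coding span of Xdh-201. Read in the frame of Xdh-201, Xdh-206 meets a TAA stop 24 bases into the intron, after 1268 codons, and Xdh-201 has 1335 codons before its stop. The joints around intron 34 read as follows in the GENCODE M21 transcripts, 5′ to 3′, with intron bases in capitals and exon bases in lower case.
Xdh-201, exon 34 joined to exon 35: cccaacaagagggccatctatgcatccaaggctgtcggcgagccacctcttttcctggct
Xdh-206, exon 34 running into intron 34 (chr17:73891081-73891140, minus strand): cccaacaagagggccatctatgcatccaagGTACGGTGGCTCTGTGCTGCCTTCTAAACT
Xdh-206, held part of intron 34 joined to exon 35: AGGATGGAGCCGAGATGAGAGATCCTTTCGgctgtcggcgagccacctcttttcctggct
The first 2 sequences begin with the same 30 bases, and the first and the last end with the same 30 bases. Reads that reach the capitals or the joint of exons 34 and 35 can tell the transcripts apart, as can reads over the few extra end bases of Xdh-201, and all other exonic stretches are shared. The tables do not give reads per exon or intron. Whether counts on Xdh-206 came from that transcript or from Xdh RNA in which intron 34 was still present cannot be told apart with these tables.

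**Figure D2:**
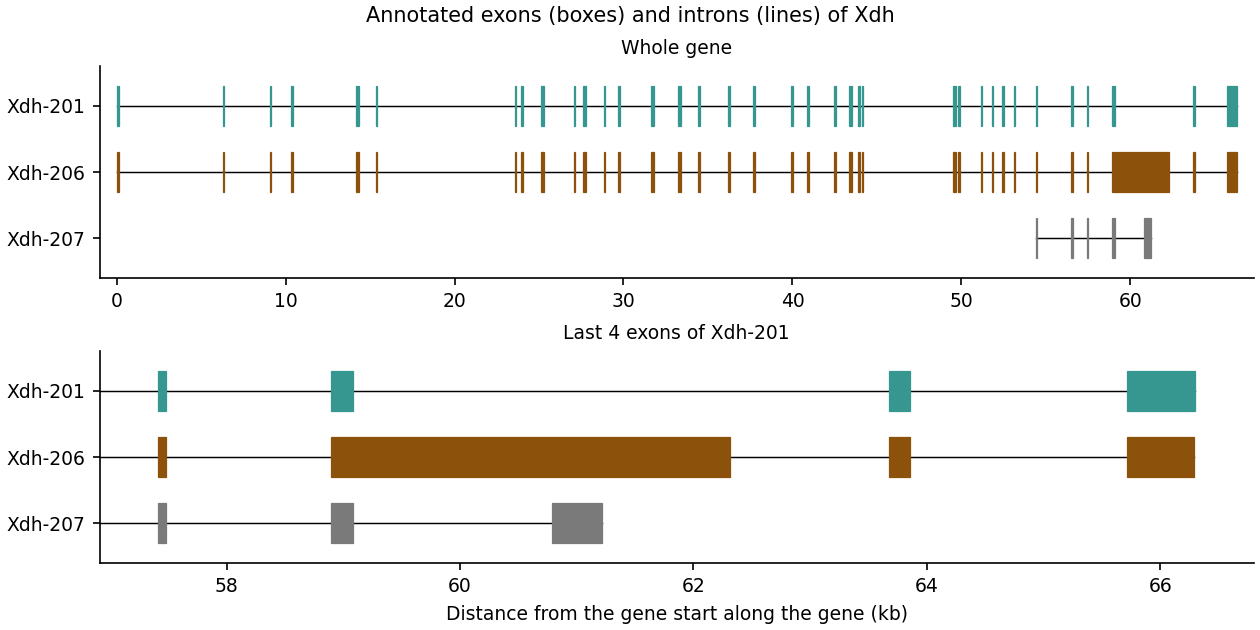
Annotated exons (boxes) and introns (lines) of Xdh-201, Xdh-206 and Xdh-207 by distance in kb from the gene start, for the whole gene (top) and for the stretch of the last 4 exons of Xdh-201 (bottom). The long exon of Xdh-206 holds 3225 bases of intron 34, and at the ends Xdh-201 reaches 37 and 13 bases further.

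The second table gave the same order. Xdh-206 had 36846, 55724 and 41235 estimated counts there and Xdh-201 had 5277, 28869 and 10745. The ratio of Xdh-206 to Xdh-201 was 6.43, 2.42 and 3.74 in the first table and 6.98, 1.93 and 3.84 in the second. In both tables replicate 1 had the highest ratio and replicate 2 the lowest.

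The even level of the gene as a whole hid a difference between its transcripts. In CPM, counts scaled to the gene counts of a library with no scaling for length, Xdh-201 had 339.9, 786.8 and 509.2 in replicates 1, 2 and 3, and Xdh-206 had 2186, 1905 and 1906, in the first table. Xdh-201 was highest in replicate 2 and lowest in replicate 1, while Xdh-206 was highest in replicate 1. Over the 9540 protein-coding genes that averaged 50 counts or more, 65.7, 69.0 and 68.3% of counts lay on protein-coding transcripts in replicates 1, 2 and 3. This was the same order as for Xdh-201. The part of library make-up or of starting RNA in this difference was not tested.

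**Figure D3:**
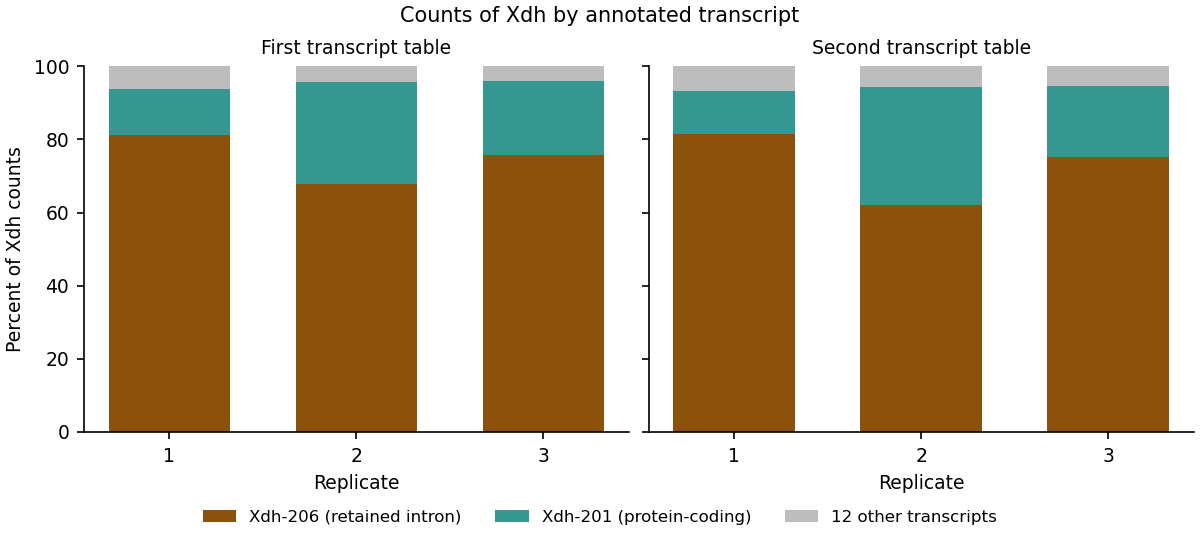
Percent of the counts of Xdh on Xdh-206, Xdh-201 and the 12 other transcripts, as stacked bars by replicate for the first (left) and second (right) transcript table. Xdh-206 holds 67.7 to 81.3% in the first table, and Xdh-201 is largest in replicate 2 in both.

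Scaled for length, the picture was less lopsided. Xdh-206 had 334, 234 and 293 TPM (287 ± 50.5 TPM) and Xdh-201 had 89.6, 167 and 136 TPM (131 ± 38.9 TPM). Xdh-207, a transcript without a coding annotation that ends inside intron 34, took 1.89% of the counts but 13.2% of the TPM of the gene, with 108, 76.5 and 87.6 TPM. Transcripts annotated as protein-coding made up 21.2 ± 4.70% of Xdh TPM. Counted on those alone, Xdh had 123, 168 and 141 TPM (mean 144 ± 23.0 TPM) and ranked 92 instead of 20 among protein-coding genes.

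The share of counts on retained-intron transcripts was 82.6, 68.9 and 76.7% for Xdh (mean 76.1 ± 6.85%). Among the 6149 protein-coding genes that have such a transcript and averaged 50 counts or more, the median share was 29.9%, and Xdh lay at percentile 90.2. Of the 5 members with such a transcript, Xdh was the 1 over 50% of counts in the first table, and 29.4% of those 6149 genes were over it. Pnp had 46.9 ± 3.71%, Nt5e 45.8 ± 6.05%, Ampd3 22.6 ± 4.90% and Gda 16.1 ± 0.518%. In the second table Xdh had 74.6 ± 9.90% and Nt5e 71.0 ± 4.37%, so Nt5e was also over 50% there, while Pnp (41.7 ± 1.89%), Ampd3 (16.9 ± 4.44%) and Gda (9.76 ± 1.56%) were not. This depended on the measure as well. By TPM in the first table, Pnp (75.5 ± 1.71%), Xdh (61.1 ± 4.08%) and Nt5e (56.5 ± 5.77%) were over 50%. Gda (46.65 ± 1.09%) and Ampd3 (33.4 ± 3.5%) were not. Hprt has a single annotated transcript and Ada has 2, none of them of the retained-intron class.

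The retained-intron transcripts of the other members differ from Xdh-206 in form. Pnp-205 has 2 exons and ends after 687 of the 2236 bases of intron 2 of Pnp (chr14:50948022-50948708). It had 644, 867 and 345 counts against 798, 704 and 386 for the protein-coding Pnp-201. Nt5e-203 holds all 763 bases of intron 6 of Nt5e and 464 bases of intron 7, and had 25, 28 and 32 counts against 23, 36 and 48 for the protein-coding Nt5e-201. The retained-intron transcript of Ampd3 ends after 849 of the 1819 bases of intron 5 of Ampd3, and had 108, 323 and 151 counts against 438, 716 and 497 for the main protein-coding transcript of Ampd3. The 3 places where these transcripts leave the coding exons are given with intron bases in capitals, so that they can be set beside Xdh-206.
Pnp-205, exon 2 running into intron 2 (chr14:50947992-50948051, plus strand): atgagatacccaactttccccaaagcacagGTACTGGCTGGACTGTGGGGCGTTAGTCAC
Nt5e-203, exon 6 running into intron 6 (chr9:88366438-88366497, plus strand): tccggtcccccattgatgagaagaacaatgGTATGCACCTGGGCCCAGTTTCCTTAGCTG
Ampd3 retained-intron transcript, exon 5 running into intron 5 (chr7:110793830-110793889, plus strand): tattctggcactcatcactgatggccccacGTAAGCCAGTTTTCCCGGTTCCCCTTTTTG
None of these 3 returns to the next exon of the coding transcript after its last held stretch, whereas Xdh-206 does. Gda-203 and Nt5e-202, not shown, do not return either, nor do Xdh-204 and Xdh-205. Xdh-213, the other retained-intron transcript of Xdh, starts inside intron 34, holds its last 231 bases and runs on into the next exon. Among the retained-intron transcripts of Xdh, Xdh-206 alone thus leaves a coding exon into an intron and then returns to the next exon. Nt5e-202 had 0, 2 and 0 counts in the first table and 67.7, 84.4 and 79.5 in the second.

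Pnp-205 is short, at 928 bases, and so took 75.5 ± 1.71% of Pnp TPM with 46.9% of its counts. Counted on protein-coding transcripts alone, Pnp had 24.9, 14.5 and 12.7 TPM, still highest in replicate 1 and lowest in replicate 3. Hprt was at 13.0 TPM and Ampd3 at 13.4 ± 0.462 TPM on that scale, so Pnp, Ampd3 and Hprt then overlapped.

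Pnp shares sequence with its neighbours, which limits its count. The gene lies at chr14:50931082-50965237 on the plus strand (ENSMUSG00000115338.2) and has 718 of its 3979 exonic bases in common with Gm49342 on the same strand and 356 with Gm38316 on the other. The paralogue Pnp2 shares no exonic position with it, but 38.3% of the 31-base words of Pnp2 also occur in Pnp. Pnp2 had 19.2, 29.7 and 9.03 counts in the gene table and 291, 420 and 175 in the second table. Pnp itself had 1441, 1696 and 772 counts in the gene table and 2467, 3226 and 1532 in the second. The split between Pnp and Pnp2 therefore depended on the table.

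Ampd3 (chr7:110768206-110812405, plus strand, ENSMUSG00000005686.17) shares 195 of its 5627 exonic bases with Rnf141 and 196 with B430319F04Rik, both on the other strand, and 83 with the miRNA gene Gm47282 on its own strand. Whether counting used strand is not given in the sources used here, so reads from these stretches cannot be told apart. Rnf141 had 45.9, 35.6 and 36.0 TPM, above Ampd3 in each library. No gene shares exonic bases with Xdh, Hprt (chrX:52988137-53021659, plus strand, ENSMUSG00000025630.8), Ada (chr2:163726584-163750239, minus strand, ENSMUSG00000017697.3), Gda (chr19:21391307-21473445, minus strand, ENSMUSG00000058624.13) or Nt5e (chr9:88327197-88372092, plus strand, ENSMUSG00000032420.8) in the annotation.

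The members differed in how evenly they were measured. On log2 CPM, scaled between libraries by TMM, Xdh deviated from its own mean by -0.03, 0.10 and -0.06 in replicates 1, 2 and 3. The SD was 0.09, which is at percentile 16.4 among the same 9540 protein-coding genes, whose median SD was 0.19. Ampd3 (SD 0.12) and Hprt (SD 0.18) were also below the median. Gda (0.29), Nt5e (0.40) and Pnp (0.56) were above it, and Pnp lay at percentile 94.8. Ada, with fewer than 50 counts on average, had an SD of 0.69 and no percentile. The percentiles were not matched for count, which averaged 48672 for Xdh, 70 for Gda and 64.7 for Nt5e. The part of count in these SDs was not tested.

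Pnp was the member with enough counts that moved most between libraries. Its deviations were 0.54, 0.02 and -0.57, a 2.16-fold range of CPM from replicate 1 to replicate 3. This order, replicate 1 highest and replicate 3 lowest, was also that of 10 of the 10 protein-coding interferon-stimulated genes listed, whose median deviations were 0.51, -0.15 and -0.34. Xdh had another order and a range of 0.16. The 8 inflammatory genes with enough counts, such as Tnf and Acod1, all had their highest value in replicate 1 and their lowest in replicate 2, and their median deviations were 1.21, -1.06 and -0.08. Gda had the order of the inflammatory genes, at 0.32, -0.24 and -0.08.

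The order of libraries depended in part on the scale. On log2(TPM + 1), the median deviation of the 9540 genes was 0.11, -0.18 and 0.08 in replicates 1, 2 and 3, against -0.02, 0.02 and 0.01 on log2 CPM, and 6749 of these genes were lowest in replicate 2. Xdh, highest in replicate 2 on log2 CPM, was highest in replicate 1 on that scale and lowest in replicate 2. Pnp kept replicate 1 as highest and replicate 3 as lowest, but 7 of the 10 interferon-stimulated genes were then lowest in replicate 2, so the order shared with Pnp did not hold in TPM. On log2 CPM with DESeq2 size factors or library size alone it held for 10 of 10 of those genes, and in the second table it was 9 of 10 that were lowest in replicate 3. Of the 8 inflammatory genes, 7 were highest in replicate 1 with DESeq2 size factors, and 7 in the second table. All 8 were lowest in replicate 2 in each of these settings.

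In all, 2 of the 7 members were highest in replicate 1, and 32.1% of the 9540 genes were. Lowest in replicate 2 were 2 members, Gda and Nt5e, beside 33.9% of those genes. The members as a set thus had no common order, and with 3 libraries an order shared with a list is a description only. The part of starting RNA, of the cultures or of library preparation in these orders was not tested.

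**Figure D4:**
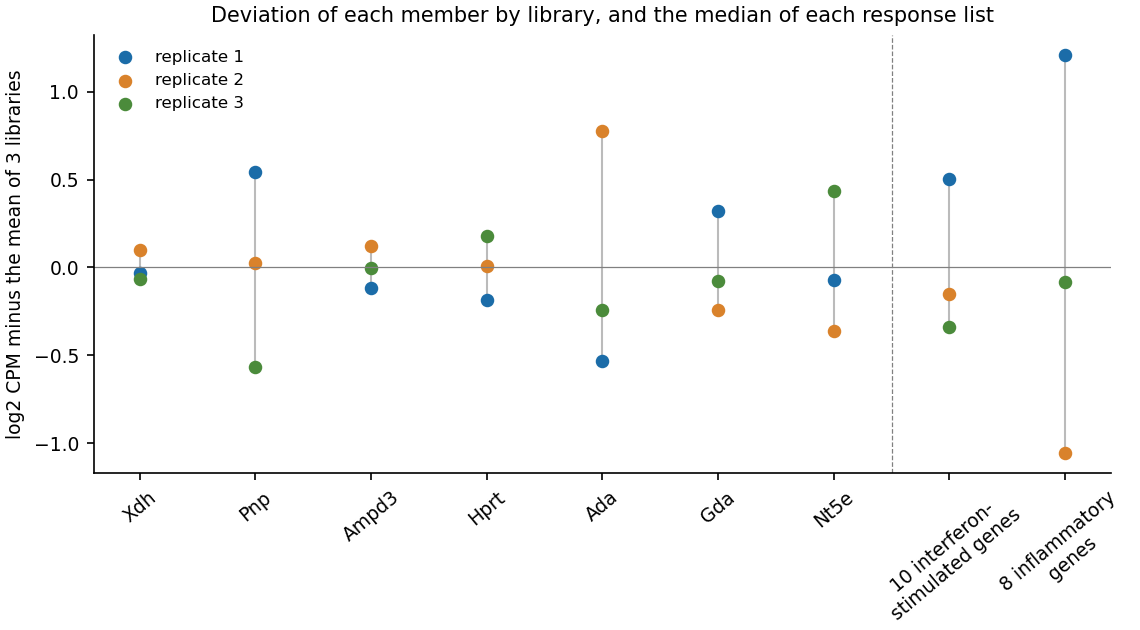
Log2 CPM of each member minus its mean over the 3 libraries, 1 point per library, beside the median of 10 interferon-stimulated and 8 inflammatory genes (right of the dashed line). Xdh spans 0.16 log2 units, Pnp 1.11, and Pnp has the same order of libraries as the interferon-stimulated genes on this scale, though not in TPM.

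The genes with the library profile nearest to each member were named by the distance between log2 CPM values centred over the 3 libraries. Xdh was nearest to Rpl5 (58.7 TPM), Brwd3 (15.2 TPM) and Uckl1 (112 TPM), and 922 of the 9540 genes lay within 0.1 log2 units of it. Ampd3 was nearest to Kdm3a with 946 genes within that distance, Hprt to Sufu with 357, and Gda to Plekhn1 with 157. The profile of Pnp was rarer, with Cd244a nearest and 8 genes within 0.1, and Nt5e had C77080 nearest and 18 genes. With 3 points per gene, such likeness is easily reached by even profiles like that of Xdh.

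The other genes were taken from 9 lists by role around purine metabolism, with 68 genes, which do not include the members. Not all of these act on purines alone, and Nt5c3 acts mainly on pyrimidine nucleotides. Of these, 43 were at 1 TPM or more in all libraries, and 45.2% of all protein-coding genes were. That share also stands beside the count given for each list below. The median level of the 68 genes was 3.24 TPM, and 4 of them, Samhd1, Lacc1, Slc28a2 and Nt5c3, had a mean above that of Pnp. In the second table these were 5, with Entpd1 added. Samhd1, a phosphohydrolase that breaks down deoxynucleotides, was the 1 above Xdh, at 1039, 716 and 703 TPM (819 ± 191 TPM). Its range overlapped that of Xdh, though Samhd1 was above Xdh in each library. Xdh alone equalled 0.397 of the summed mean level of all 68 genes, which was 1727 TPM.

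In salvage, where Pnp and Hprt act, all 7 other genes reached 1 TPM in all libraries. Lacc1, which encodes a purine nucleoside phosphorylase and deaminase of macrophages, was above Pnp in each library, at 378, 170 and 239 TPM (262 ± 106 TPM). Dguok, deoxyguanosine kinase, had 25.7 ± 3.00 TPM and adenosine kinase Adk 18.7 ± 3.93 TPM, both above Hprt in each library. The lowest in the gene table was Pnp2, at 1.75 ± 0.705 TPM, but in the second table it had 27.1 ± 10.8 TPM and Mtap was lowest at 3.78 ± 0.745 TPM. Aprt, which does for adenine what Hprt does for hypoxanthine and guanine, had 11.7, 10.4 and 14.4 TPM (12.2 ± 2.00 TPM). Its range overlapped that of Hprt in the gene table, though Aprt was below Hprt in each library. In the second table Aprt had 12.4 ± 1.05 TPM and Hprt 20.4 ± 1.43 TPM, so they stood further apart.

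Among the deaminases beside Ampd3 and Ada, the AMP deaminase Ampd2 had 11.7 ± 2.32 TPM, below Ampd3 in each library, and Adal had 6.03 ± 0.566 TPM. Ampd1, the muscle form, had 0.08 ± 0.0854 TPM, and 3.30 ± 2.00 TPM in the second table. In the list of nucleotidases and ectoenzymes to which Nt5e belongs by function, 8 of 13 genes reached 1 TPM in all libraries. The cytosolic nucleotidases Nt5c3 (72.8 ± 36.3 TPM) and Nt5c2 (58.4 ± 4.65 TPM) followed Samhd1 in the gene table, and Nt5c1a and Nt5c1b were both listed at 0 counts, which allows up to 3 counts in a library. Nt5e, at 1.35 TPM, stood below Entpd1, the ectoenzyme CD39 that makes the AMP it uses, at 39.7, 24.7 and 39.4 TPM (34.6 ± 8.56 TPM). Entpd1 in the second table had 190 ± 41.6 TPM and came next after Samhd1, ahead of Nt5c3 (102 ± 44.0 TPM) and Nt5c2 (85.6 ± 4.22 TPM), and Nt5e had 2.97 ± 0.626 TPM. Entpd1 was named after its values were seen.

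Downstream of Xdh, the genes that break down uric acid, Uox, Urah and Urad, had 0 counts in each library. The limit that 0 counts allow is 3 counts, or 0.220, 0.125 and 0.182 CPM in replicates 1, 2 and 3. In the second table Uox was at 7.66 ± 3.13 TPM while Urah and Urad were at 0, so the value of Uox depended on the table. The enzyme encoded by Xdh needs molybdenum cofactor, and 6 of the 10 genes in the list of cofactor assembly and related oxidases reached 1 TPM in all libraries. In the gene table Mocs2 led with 18.4 ± 2.31 TPM, followed by the cofactor sulfurase Mocos (16.4 ± 2.37 TPM), which activates xanthine oxidoreductase, and Mocs1 (16.3 ± 4.21 TPM). The second table put Mocs1 first at 45.2 ± 17.5 TPM, above Mocs2 (28.9 ± 5.17 TPM) and Mocos (19.1 ± 2.50 TPM). The aldehyde oxidases Aox3 and Aox4 both had 0 counts in the gene table.

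Of the 11 carriers, 6 reached that level. Slc28a2, a concentrative transporter of purine nucleosides, had 134, 60.3 and 65.7 TPM (86.7 ± 41.1 TPM), a range that overlapped that of Pnp. Slc29a3, with 24.7, 18.6 and 26.2 TPM, and the urate carrier Slc2a9 (17.8 ± 1.77 TPM) came next. In the second table Slc2a9 (33.9 ± 4.34 TPM) stood above Slc29a3 (28.8 ± 1.61 TPM). Slc29a1 (29.0 ± 9.77 TPM), named after its values were seen, lay between their means there. Slc28a1 and Slc22a12 both had 0 counts in the gene table. Of the adenosine receptors, which bind the product of Nt5e, Adora2a had 2.38 ± 1.04 TPM, Adora3 0.773 ± 0.0493 TPM and Adora2b 0.34 ± 0.0721 TPM, and Adora1 had 0 counts. The second table had Adora2a at 6.98 ± 3.48 TPM and Adora3 at 5.60 ± 0.316 TPM.

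The genes of new purine synthesis were far below Xdh. Of the 10 in the list, 7 reached 1 TPM in all libraries, led by Prpsap1 (18.2 ± 1.51 TPM), Adsl (10.3 ± 1.09 TPM) and Gart (10.2 ± 1.06 TPM), with Prps1 lowest at 0.647 ± 0.54 TPM. By the second table Adsl led with 56.4 ± 9.17 TPM, above Prpsap1 (21.5 ± 0.679 TPM) and above Ampd3 (31.2 ± 1.97 TPM). In the branches between IMP and AMP or GMP, taken in either direction, 6 of 7 reached 1 TPM in all libraries. Impdh2 (19.0 ± 3.02 TPM), Adss (15.2 ± 2.15 TPM) and Gmpr2 (10.5 ± 1.06 TPM) led, and Impdh1 was lowest at 1.62 ± 1.14 TPM. In the gene table the highest gene of both lists, Impdh2, had a mean below that of Ampd3, with overlapping ranges.

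**Figure D5:**
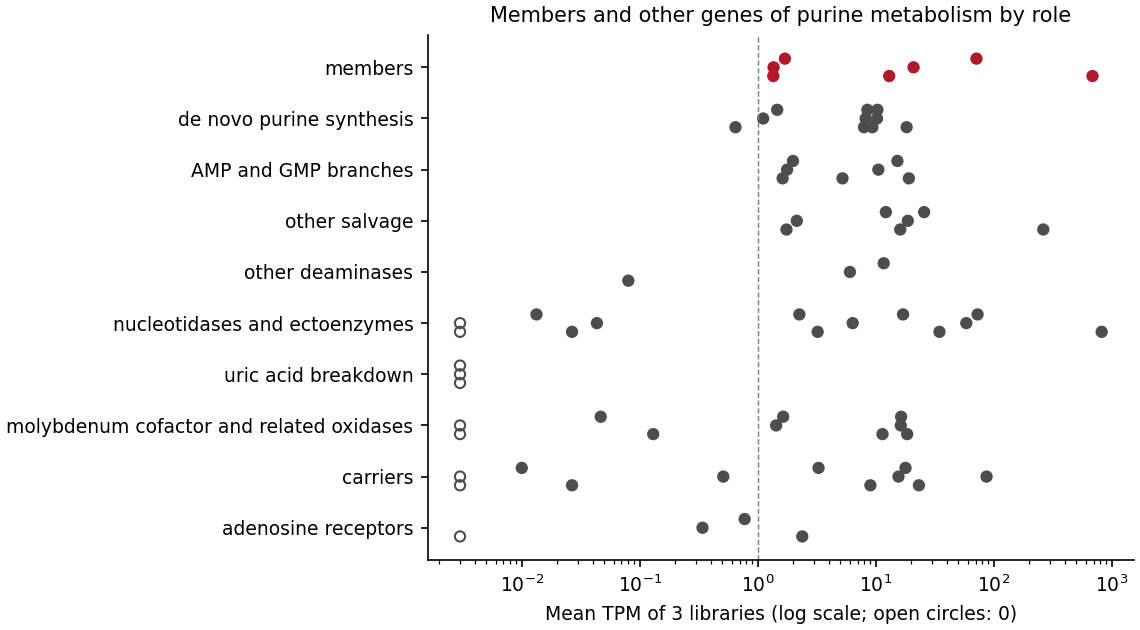
Mean TPM over the 3 libraries on a log axis, 1 point per gene, for the 7 members (top, red) and 68 other genes in 9 lists by role around purine metabolism. Open circles at the left edge are genes listed at 0 and the dashed line marks 1 TPM. Xdh at 685 TPM and Samhd1 at 819 TPM stand apart on the right, and the 3 genes of uric acid breakdown are at 0.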

How the data were processed

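Each of the 3 libraries came with a table of genes and 2 tables of transcripts, the second in a different layout. Values refer to mm10 and GENCODE M21, per the notes deposited with each library. Column names match the layouts of RSEM and kallisto, but neither program, version nor aligner is given in the sources used here. Per the file headers, the authors' expected counts (gene and first transcript tables) and estimated counts (second table) need not be whole. The authors' deposited TPM values are scaled for effective length within a library, and FPKM, per the file headers, for length and library size.

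The 55536 genes were matched to GENCODE M21 by identifier, and 26345 other entries, with 2.46, 0.484 and 0.327% of counts, were left out of library sizes but not of the deposited TPM. Of these genes, 86 had no entry in the second table and were set to 0. Shares have Wilson intervals. Log2 CPM used rounded expected counts, TMM factors (1.03, 0.984 and 0.985) of edgeR 4.0.16 in R 4.3.3 and a prior count of 2. DESeq2 1.42.0 size factors were an alternative. The log2 CPM code was run on simulated counts with a planted shift, which checks the code and not the scaling of these libraries. Percentiles are among protein-coding genes averaging 50 counts or more. Transcript classes, structures and sequences came from GENCODE M21.

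With 1 group no test was run. Members, lists and settings were chosen with earlier results of these data known. Named are all members, the 3 highest genes and the lowest of each role list (all of a list of up to 4), genes around Xdh by rank, and the genes nearest in profile (3 for Xdh, 1 for each other member). Ada had no nearest gene, as it lacked 50 counts.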

Additional observations from a re-analysis of the deposited data

How the results depend on the processing

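No paired analysis was possible because there was 1 group and no comparison between groups. Of 54 alternative values of the main results, 46 stayed within their limit and 8 moved. The share of Xdh among gene counts was 0.267%, 0.205% in the second table, and 0.0563% on protein-coding transcripts alone, a setting chosen after seeing the data. The rank of Xdh was 20 by TPM, 6 by CPM, and 92 on protein-coding transcripts alone, also chosen after seeing the data. Ordered by CPM, 4 of the 7 members kept their place, since Gda, Nt5e and Ada changed places. The median share of TPM on protein-coding transcripts was 46.9%, 56.4% in the second table, and 40.7 to 54.0% without 1 replicate. Without 1 replicate the mean of Xdh was 656 to 703 TPM, its rank 19 to 24, and 5 to 7 members were at 1 TPM or more in every library left. In the second table all 7 were, and 50 instead of 43 of the 68 genes in the role lists. Another scaling did not change the library in which a member was highest, except that on log2(TPM + 1) Xdh was highest in replicate 1 and Ampd3 in replicate 3, and that in the second table Hprt was highest in replicate 2. For Ada, Gda and Nt5e, with 11 to 80 counts a library, depth limits any statement on differences between libraries.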
